A study of Homo sapiens with 6 samples.

Results

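The genes described are 10 of the 28395 genes counted in H146 SCLC cells, chosen as the RNA and DNA sensors that bear on transfected RNA and on errors of mitosis. They are *RIGI*, *IFIH1*, *MAVS*, *TLR3*, *EIF2AK2*, *ADAR*, *CGAS*, *STING1*, *TBK1* and *IRF3*, and all 10 were matched in the count table by NCBI gene ID. H146 (NCI-H146) is an established human small-cell lung cancer line that the labels give as wild type. RNA was sequenced on day 2 after transfection with a negative control siRNA, which was scrambled, or with an siRNA against *KIFC1*, the kinesin that clusters extra centrosomes, with 3 biological replicates per group. The library names of the knockdown group share a number ahead of the replicate number. It was read as that of a single siRNA, though the labels do not say so. Loss of KIFC1 and any other effect of the siRNA sequence used cannot be told apart. Both groups received siRNA with a lipid reagent, and cells without siRNA were not analysed here, so each level below is a level in transfected cells.

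Nucleic acid sensors recognise RNA or DNA that is out of place. RIG-I, encoded by *RIGI*, and MDA5, encoded by *IFIH1*, bind double-stranded RNA in the cytosol and signal through the mitochondrial adaptor MAVS. TLR3 binds double-stranded RNA in endosomes. PKR, encoded by *EIF2AK2*, is a kinase that double-stranded RNA activates and that stops translation, while ADAR1, encoded by *ADAR*, edits adenosines in cellular double-stranded RNA and so limits its recognition. The enzyme cGAS binds DNA in the cytosol, including DNA in micronuclei left by faulty mitosis, and makes a second messenger that activates STING. MAVS, TLR3 and STING converge on the kinase TBK1 and the transcription factor IRF3, which induce interferon beta, and interferon in turn raises the transcription of several of the sensors themselves.

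Matches to the interferon response element in the promoters are shown here because interferon-induced genes are set beside the sensors below. In RefSeq promoter windows of GRCh38.p14 that run from 250 bases before to 50 bases after a gene's start, both strands were searched for the core of that element, GAAA followed after any 2 bases by GAAA again. It was found in 3.57% of the 35116 windows, and in windows of 4.38% of the 27305 genes in the table. Among the interferon-stimulated genes listed for this work, 32 of the 46 in the table had a match (69.6%). Of the sensors, *RIGI*, *IFIH1*, *MAVS*, *TLR3*, *EIF2AK2*, *ADAR* and *TBK1* were in the table, and 3 of these 7 had a match, namely *IFIH1*, *TLR3* and *EIF2AK2*. The *IFIH1* window held 3 matches, which began 159, 153 and 21 bases before the start, the first of them overlapping the next. The single match began 4 bases before the start in *TLR3* and 6 bases before it in *EIF2AK2*. The stretches around the matches, with 20 bases on either side and the matched letters in capitals, are at chr2:162318676-162318863 (minus strand) for *IFIH1*, chr4:186069132-186069181 (plus strand) for *TLR3* and chr2:37156957-37157006 (minus strand) for *EIF2AK2*.
IFIH1: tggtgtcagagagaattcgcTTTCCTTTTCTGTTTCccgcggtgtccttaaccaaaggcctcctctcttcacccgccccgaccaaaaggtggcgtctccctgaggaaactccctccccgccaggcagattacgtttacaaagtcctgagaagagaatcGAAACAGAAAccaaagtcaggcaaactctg
TLR3: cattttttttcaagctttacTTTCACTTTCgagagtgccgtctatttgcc
EIF2AK2: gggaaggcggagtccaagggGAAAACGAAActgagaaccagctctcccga
A match is a description of the letters and was not tested as a binding site. The *TLR3* window also held few CG dinucleotides, 5 against a median of 14 over all windows, while the *EIF2AK2* window held 30 and the *IFIH1* window 12. The motif was thus shared by *TLR3*, for which hardly any read was counted, and by *IFIH1* and *EIF2AK2*, which were expressed.

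Depth ran from 15392374 to 17754458 counts over the 6 libraries, with 19437 to 20472 genes detected in each and 8.34% to 13.1% of counts on mitochondrial genes. Levels were scaled by edgeR's TMM method to CPM, which expresses counts relative to library size, and levels of different genes were compared only after division by the length of the GENCODE 44 canonical transcript (CPM per kilobase). *KIFC1* (chr6:33391461-33409896) was counted 14, 4 and 14 times in the control libraries against 1, 1 and 0 times after knockdown, at least 3.23-fold lower when 3 counts are taken as the limit of each knockdown library. Of its mRNA, 87.9% of the 32-base words also occur on alternate sequences of GRCh38, and its adjusted p was 0.0739 in edgeR's quasi-likelihood test and 0.00459 when the same test held the replicate number as a block. The 14 neuroendocrine markers summed to between 3926.7 and 4360.3 CPM in the control libraries and between 4239.3 and 4804.3 CPM in the knockdown libraries. Of these, *UCHL1* had from 18418 to 22626 counts in every library, whereas *NEUROD1* had at most 5. The 12 immune cell markers summed to 6.45 to 8.16 CPM with control siRNA and 7.79 to 12.1 CPM with KIFC1 siRNA, and the T cell marker *CD3E* had at most 3 counts. The 10 fibroblast and endothelial markers summed to 16.3 to 21.2 CPM and 17.5 to 20.5 CPM, and of these *COL1A2* had 113 to 197 counts per library and *DCN* at most 1.

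The first question was which sensors were silent in control cells. A gene with at most 3 counts per library throughout a group was called floor-level. In these libraries 3 counts correspond to 0.163 to 0.198 CPM, a limit that covers counting error only. With control siRNA, 2 of the 10 genes were floor-level, *TLR3* and *STING1*, beside 10977 of all 28395 genes. The DNA sensor *CGAS* was close above it, and the other 7 genes were expressed with at least 172 counts in each control library. In bulk RNA, fewer cells that express a gene and less RNA of it per cell cannot be told apart. Under a floor of 10 counts, *CGAS* joined them, for 3 genes.

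*TLR3* (chr4:186069156-186088073), the endosomal receptor, was counted 1, 1 and 2 times with control siRNA, and 1, 1 and 0 times with KIFC1 siRNA. It was at the floor in all 6 libraries. *STING1* (chr5:139475533-139482758), the adaptor that receives the cGAS messenger, gave 1, 3 and 0 counts in control cells, and 0, 4 and 1 after knockdown. Its only value above 3 counts was in knockdown replicate 2. *CGAS* (chr6:73423711-73452297) gave 4, 2 and 9 counts in control cells, and 3, 0 and 5 after knockdown, and the groups overlapped.

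Summed over the 3 libraries of a group, *CGAS* had 15 counts with control siRNA and 8 with KIFC1 siRNA, a ratio of 0.577 after scaling for depth, with an exact 95% interval of 0.212 to 1.45 that covers counting error only. Control replicate 3 held 9 of the 15 counts, and without it the ratio was 0.922 (0.281 to 3.23), while without knockdown replicate 3 it was 0.331 (0.0614 to 1.17). A change of *CGAS* within such an interval, in either direction, was not detectable at this depth. For *STING1* and *TLR3* no ratio is given. These 3 genes had too few counts to pass the filter of the test across all genes. Reads lost to other copies of these mRNAs were looked for by their 32-base words. On alternate sequences of GRCh38 lay 0.0% of the words of *STING1*, 2.3% of those of *TLR3* and 9.4% of those of *CGAS*, and 14.8% of those of *CGAS* occurred more than once in the primary sequence.

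**Figure D1:**
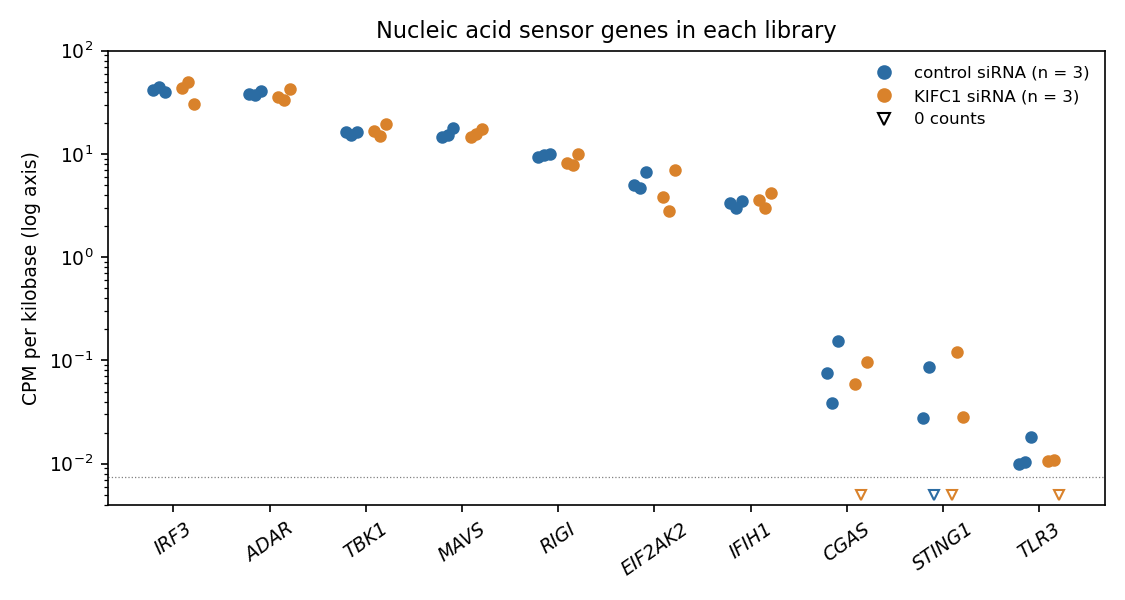
Level of each sensor gene in each of the 6 libraries, in CPM per kilobase of canonical transcript on a log axis, with genes ordered by their control mean. Filled circles are libraries (blue, control siRNA, n = 3; orange, KIFC1 siRNA, n = 3), open triangles below the dotted line are libraries with 0 counts; 7 genes lie between 2.83 and 50.1 CPM per kilobase in every library, and *CGAS*, *STING1* and *TLR3* lie at or below 0.153.

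Per length, the transcription factor *IRF3* had the highest control level, 41.9 ± 2.23 CPM per kilobase (SD, n = 3). *ADAR* followed at 38.8 ± 1.70 CPM per kilobase, and the libraries of these neighbours overlapped, from 40.0 to 44.4 for *IRF3* and from 37.4 to 40.7 for *ADAR*. Both lay above the 90th percentile of the 20371 genes ranked, at 91.6 and 90.8.

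The kinase *TBK1* and the adaptor *MAVS* came next, at 16.1 ± 0.657 and 15.9 ± 1.66 CPM per kilobase, and also overlapped. The RNA sensors proper were lower. *RIGI* had 9.73 ± 0.383, *EIF2AK2* 5.47 ± 1.10 and *IFIH1* 3.26 ± 0.235 CPM per kilobase (SD, n = 3), with no overlap between these neighbours. With these lengths *ADAR* was 11.9 times as abundant as *IFIH1*.

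*CGAS* at 0.0891, *STING1* at 0.0381 and *TLR3* at 0.0128 CPM per kilobase closed the order, and the libraries of *STING1* overlapped those of both others.

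The order depended on the transcript length used. With the longest transcript, *ADAR* came before *IRF3*, and *MAVS* and *RIGI* came before *TBK1*. With all exons merged, *TBK1* took the sixth place and *EIF2AK2* came before *RIGI*. *IFIH1*, *CGAS*, *STING1* and *TLR3* held the last 4 places in that order with all 3 lengths.

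The second question was whether the sensors that were expressed changed after KIFC1 knockdown. With edgeR's quasi-likelihood test and Benjamini-Hochberg adjustment over the 14777 genes fitted, 0 of the 7 sensor genes tested passed an adjusted p of 0.05, where 0.697% of all genes tested did (0.325% higher and 0.372% lower). At an unadjusted p under 0.05, 0 of the 7 passed, against 9.26% of all genes tested. DESeq2 and limma-voom also called 0 of the 7, with 0 at an unadjusted p under 0.05 in each, against 8.31% and 9.4% of all genes tested. The unadjusted count rested on replicate 3. Without knockdown replicate 3, 2 of the 7 had an unadjusted p under 0.05 in edgeR, *RIGI* and *EIF2AK2*, against 18.6% of all genes tested, and without replicate 3 in both groups, an alternative chosen after the values were seen, the same 2 did, against 14.0%. In each of the 7 genes the CPM ranges of the groups overlapped, while they did not overlap for 15.5% of all genes tested. The intervals below give the sizes of change that these libraries leave possible, since a p above the threshold does not show that a level stayed the same.

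*RIGI* (chr9:32455302-32526196) had 43.2, 45.3 and 46.7 CPM with control siRNA and 37.5, 36.6 and 46.6 CPM with KIFC1 siRNA. Knockdown replicates 1 and 2 were below all control libraries and replicate 3 was among them. The log2 fold change was -0.16 (standard error 0.12, 95% interval -0.43 to 0.10, adjusted p = 0.787 in edgeR), so the interval spans levels from 0.742 to 1.07 times the control. Without knockdown replicate 3 the value of *RIGI* was -0.28 (adjusted p = 0.139 in edgeR), and without replicate 3 in both groups it was -0.26 (adjusted p = 0.258 in edgeR). *IFIH1* (chr2:162267074-162318684) had 11.9, 10.8 and 12.4 CPM with control siRNA and 12.9, 10.7 and 14.9 CPM with KIFC1 siRNA. Its lowest and its highest value were both in knockdown libraries, and the log2 fold change of *IFIH1* was 0.14 (standard error 0.16, 95% interval -0.21 to 0.48, adjusted p = 0.888 in edgeR).

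*MAVS* (chr20:3846834-3876118), which both RNA helicases need to signal, had 170.3, 180.5 and 208.0 CPM with control siRNA and 170.2, 184.4 and 203.2 CPM with KIFC1 siRNA. Replicate 1 was the lowest and replicate 3 the highest in both groups. The fitted level was 0.998 times the control (95% interval 0.840 to 1.19, adjusted p = 0.998 in edgeR).

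*EIF2AK2* (chr2:37099210-37156980) varied most between libraries, relative to its mean, of the 7 genes. It had 49.6, 47.0 and 67.1 CPM with control siRNA and 38.6, 28.3 and 69.4 CPM with KIFC1 siRNA. Replicate 3 was the highest library in both groups, and knockdown replicates 1 and 2 were below all control libraries. The log2 fold change was -0.26 (standard error 0.30, 95% interval -0.94 to 0.41, adjusted p = 0.885 in edgeR).

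The replicate number made a difference for this gene. Between libraries of the same number, the log2 differences of *EIF2AK2* were -0.36, -0.73 and 0.05. When the replicate number entered the fit as a block, the log2 fold change was -0.33 (95% interval -0.58 to -0.09), with an adjusted p of 0.111 in edgeR. It was the only 1 of the 7 genes with an unadjusted p under 0.05 in that fit, which 17.7% of all genes tested had, and the blocked fit called 5.83% of all genes.

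The value rested on several libraries. Without knockdown replicate 3 the log2 fold change of *EIF2AK2* was -0.71 (adjusted p = 0.0588 in edgeR), and without replicate 3 in both groups it was -0.54 (adjusted p = 0.1 in edgeR). Without knockdown replicate 2 it was -0.02, and without control replicate 3 it was -0.09. Over the 14 alternatives that gave a value, the log2 fold change ranged from -0.71 to -0.02 and the adjusted p from 0.0588 to 1.0. On the opposite strand, 35 bases of the *EIF2AK2* transcript (0.351%) overlap exons of *GPATCH11*.

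*ADAR* (chr1:154582057-154627997) had 253.4, 247.5 and 269.3 CPM with control siRNA and 237.0, 222.2 and 281.2 CPM with KIFC1 siRNA. Knockdown libraries held both the lowest and the highest values. The log2 fold change was -0.06 (standard error 0.11, 95% interval -0.30 to 0.19, adjusted p = 0.94 in edgeR), which leaves a change of -18.7% to 13.8%.

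*TBK1* (chr12:64452120-64502114), the kinase shared by the RNA and the DNA arm, had 49.9, 46.3 and 49.5 CPM with control siRNA and 50.4, 45.1 and 58.5 CPM with KIFC1 siRNA. The log2 fold change of *TBK1* was 0.08 (standard error 0.12, 95% interval -0.18 to 0.34, adjusted p = 0.913 in edgeR). *IRF3* (chr19:49659572-49665857) had 66.0, 70.8 and 63.9 CPM with control siRNA and 68.9, 80.0 and 48.1 CPM with KIFC1 siRNA. The knockdown libraries enclosed the control range from both sides. The log2 fold change of *IRF3* was -0.03 (standard error 0.16, 95% interval -0.38 to 0.32, adjusted p = 0.987 in edgeR), and without knockdown replicate 3 it was 0.15 (adjusted p = 0.445 in edgeR).

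**Figure D2:**
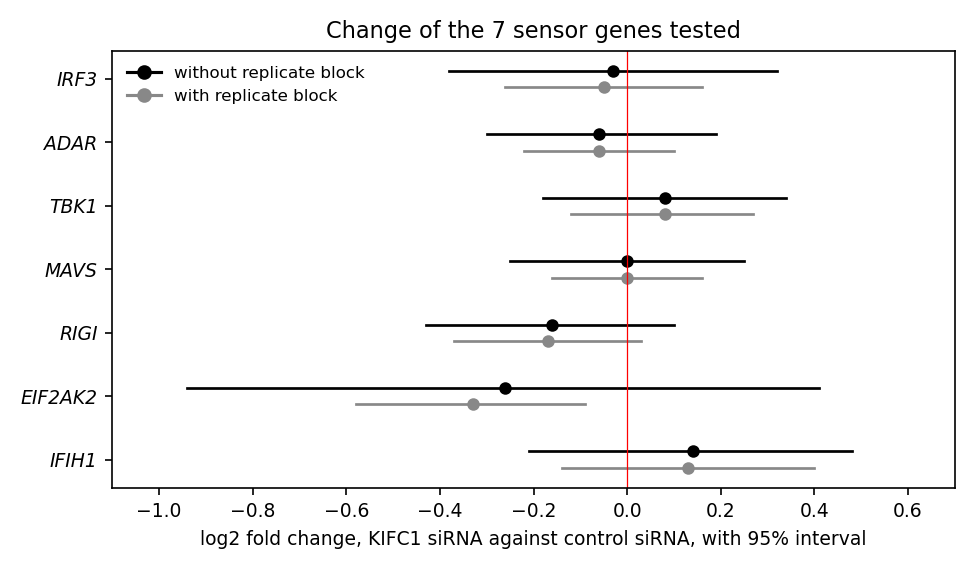
Log2 fold change (x axis) of the 7 sensor genes tested, KIFC1 siRNA against control siRNA, with 95% intervals from edgeR without (black) and with (grey) the replicate number as a block. All black intervals include 0, and among the grey ones that of *EIF2AK2* runs from -0.58 to -0.09.

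Taken over the 7 genes tested, 2 fitted log2 fold changes were above 0 and 5 below, with a median of -0.03. Among the 5 was *MAVS*, at 0.998 times the control. Over all 14777 genes tested, 7698 were above 0 and 7079 below, with a median of 0.01. Libraries of the knockdown group lay further apart for each of the 7 sensor genes except *MAVS*. The SD with control siRNA and with KIFC1 siRNA was 1.77 and 5.55 CPM for *RIGI*, 10.9 and 21.4 CPM for *EIF2AK2*, and 3.55 and 16.2 CPM for *IRF3*. It was 0.841 and 2.07 CPM for *IFIH1*, 11.3 and 30.7 CPM for *ADAR*, and 1.98 and 6.76 CPM for *TBK1*. For *MAVS* it was 19.5 and 16.5 CPM. The difference in spread was not tested. It was not particular to the sensors. Over 12148 to 12290 genes, the mean chi-square per gene between control libraries was 6.83 to 22.9. Between knockdown libraries it was 25.5 to 41.6, over 12091 to 12123 genes.

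**Figure D3:**
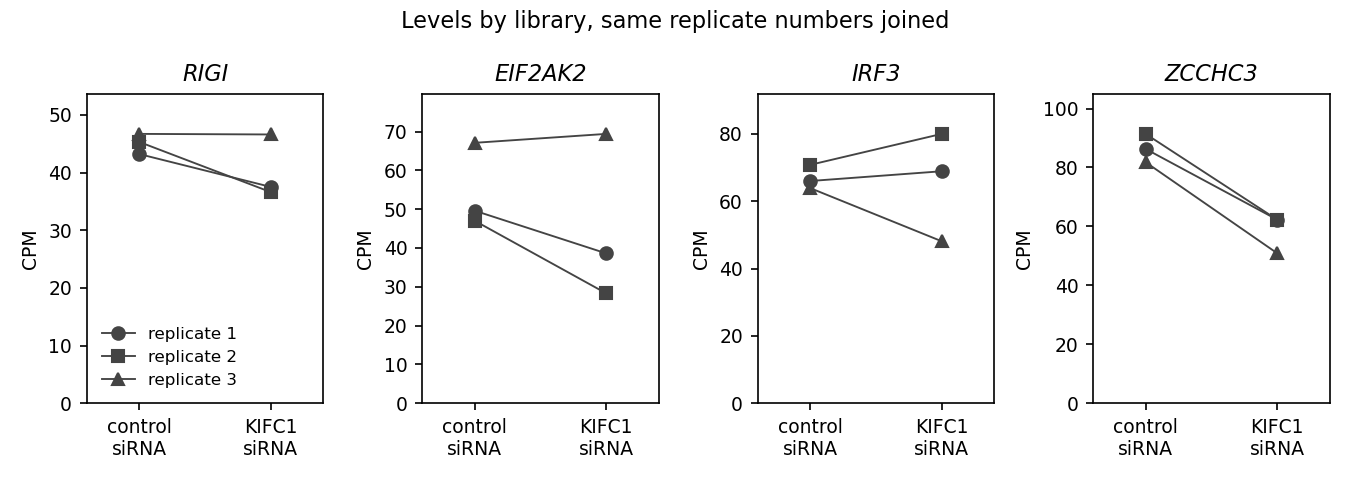
CPM (y axis, from 0) of *RIGI*, *EIF2AK2*, *IRF3* and the cofactor gene *ZCCHC3* in each library, with lines joining libraries of the same replicate number. *RIGI* and *EIF2AK2* are lower after KIFC1 siRNA in replicates 1 and 2 but not *EIF2AK2* in replicate 3 (67.1 and 69.4 CPM). *IRF3* is lower in replicate 3 alone (63.9 and 48.1 CPM). *ZCCHC3* is lower in all 3 replicates, as were 19.4% of all genes tested.

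The other genes of the pathways were taken from 7 lists that hold 181 different genes with the sensors, of which 135 could be tested. With an adjusted p under 0.05, edgeR's test called 0 of the 135, limma-voom 0 and DESeq2 1, *ZCCHC3*, where DESeq2 called 1.83% of all genes tested. In edgeR 9 of the 135 had an unadjusted p under 0.05, beside 9.26% of all genes tested, and the median log2 fold change was 0.01, as over all genes. By list, the number of genes with a log2 fold change above and below 0 was 14 and 14 for cytosolic RNA sensing, 6 and 5 for endosomal receptors, 8 and 5 for effectors and editors of double-stranded RNA, 16 and 12 for cytosolic DNA sensing, 9 and 8 for the NF-kB arm, 9 and 8 for interferons with their receptors, and 17 and 16 for interferon-stimulated genes. The medians of the lists lay between 0.00 and 0.05.

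*ZCCHC3*, which encodes a cofactor of both cGAS and the RIG-I-like receptors, came closest to the threshold. It lies at chr20:297570-300321. It had 86.3, 91.4 and 81.8 CPM with control siRNA and 62.3, 62.3 and 50.9 CPM with KIFC1 siRNA, so all knockdown libraries were below all control libraries. The log2 fold change was -0.56 (standard error 0.12, 95% interval -0.82 to -0.31), 0.676 times the control, with an adjusted p of 0.0513 in edgeR.

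This call depended on the test. In the blocked fit the log2 fold change of *ZCCHC3* was -0.57 and its adjusted p was 0.000123 in edgeR. In DESeq2 the adjusted p was 0.00137, and in limma-voom it was 0.0543. Over 14 alternatives the log2 fold change stayed between -0.62 and -0.47, and the adjusted p ranged from 0.000123 to 0.293, with 6 of the 14 under 0.05.

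Among other genes of the RNA arm, *DHX58*, which encodes the third RIG-I-like receptor LGP2, gave 1, 2 and 3 counts in control cells, and 1, 4 and 2 after knockdown. *DHX58* was therefore floor-level in control cells, unlike its relatives *RIGI* and *IFIH1*. The adaptor gene *TRAF3* had a log2 fold change of -0.29, with an adjusted p of 0.492 in edgeR and an adjusted p of 0.0512 with the block. *PPP1CA* and *PPP1CC*, phosphatase genes whose products activate RIG-I and MDA5, were the most abundant genes of the RNA sensing list per length, at 194.9 and 101.6 CPM per kilobase. Their fold changes in log2 were 0.01 and -0.04.

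Of the endosomal receptors, *TLR8* was at the floor in all libraries along with *TLR3*, while the trafficking factor *UNC93B1* was expressed at 12.9 ± 0.670 CPM with control siRNA and 15.6 ± 2.14 CPM with KIFC1 siRNA (SD, n = 3; log2 fold change 0.28, adjusted p = 0.64 in edgeR). Within the primary sequence, 32.5% of the words of *UNC93B1* occur more than once. The chaperone genes *HSP90B1* and *CNPY3*, which many Toll-like receptors need for folding, were abundant, at 583.0 and 70.4 CPM per kilobase with control siRNA. Thus the folding and trafficking factors were present in cells in which the receptor genes *TLR3* and *TLR8* were not detectable above the floor. Of the other receptors listed, *TLR9* was above it, with 8, 1 and 7 counts in control cells and 7, 7 and 6 after knockdown. *TLR7* gave 1, 0 and 0 counts in control cells, and 0, 2 and 4 after knockdown.

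For the enzymes that act on double-stranded RNA, *OAS1*, an interferon-induced sensor, had 7.74, 8.77 and 7.62 CPM with control siRNA and 9.39, 9.68 and 11.8 CPM with KIFC1 siRNA. These groups did not overlap, and the log2 fold change was 0.35 (95% interval -0.00 to 0.71), with an adjusted p of 0.545 in edgeR. *OAS2* was at the floor in all 6 libraries, whereas *OAS3* was expressed at 18.3 ± 3.50 CPM with control siRNA and 19.1 ± 6.92 CPM with KIFC1 siRNA (SD, n = 3). *PRKRA*, which encodes an activator of PKR, had 62.8 ± 5.11 CPM with control siRNA and 74.9 ± 4.13 CPM with KIFC1 siRNA, without overlap (SD, n = 3; log2 fold change 0.25, adjusted p = 0.495 in edgeR), and 76.6% of its words occur on alternate sequences. *ILF2*, which encodes a partner of double-stranded RNA binding proteins, was abundant, at 168.4 CPM per kilobase.

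In the DNA arm, the sensors *IFI16*, *AIM2* and *ZBP1* were at the floor in all 6 libraries, along with the low levels of *CGAS* and *STING1* described above. By contrast *TREX1*, the nuclease that removes cytosolic DNA, was expressed at 8.92 ± 1.32 CPM with control siRNA and 11.2 ± 2.41 CPM with KIFC1 siRNA (SD, n = 3). Its log2 fold change was 0.33 (95% interval -0.08 to 0.75, adjusted p = 0.677 in edgeR). *BANF1*, whose product coats DNA and restrains cGAS, had 286.8 CPM per kilobase, and the Ku subunit gene *XRCC6* had 194.3. Of their words, 66.3% and 45.5% occur more than once in the primary sequence. *SURF4*, which encodes a STING retrieval factor, had 187.0 ± 4.95 CPM with control siRNA and 161.1 ± 12.4 CPM with KIFC1 siRNA, without overlap (SD, n = 3; log2 fold change -0.22, adjusted p = 0.552 in edgeR).

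The NF-kB arm, which the same adaptors switch on beside IRF3, was expressed throughout, and all 17 of its genes could be tested. *TAB2*, an adaptor of the kinase TAK1, had 141.3 ± 9.81 CPM with control siRNA and 165.4 ± 10.1 CPM with KIFC1 siRNA, without overlap (SD, n = 3; log2 fold change 0.23, adjusted p = 0.54 in edgeR). *CHUK*, which encodes the kinase IKK alpha, had a log2 fold change of -0.20 (95% interval -0.43 to 0.04, adjusted p = 0.653 in edgeR), also without overlap. In 3 of the 17 genes the groups did not overlap, beside the 15.5% of all genes given above.

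**Figure D4:**
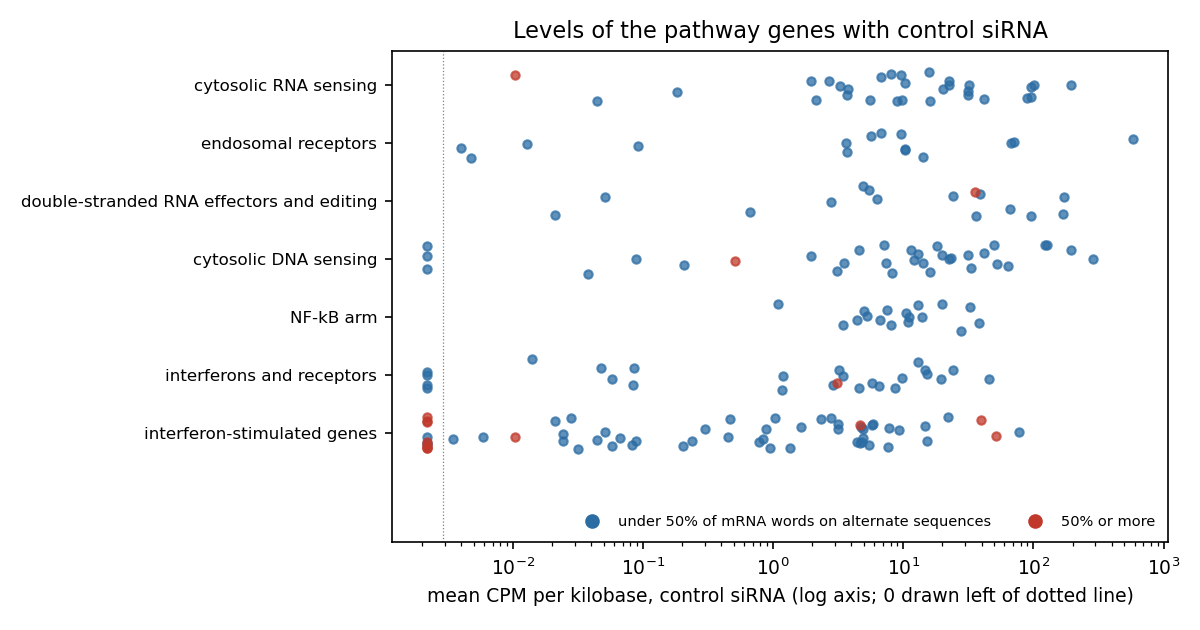
Mean level with control siRNA (n = 3) of every gene of the 7 pathway lists, in CPM per kilobase on a log axis; genes with 0 counts are left of the dotted line. Red points are genes with 50% or more of their mRNA words on alternate sequences of GRCh38, and 9 of the 20 interferon-stimulated genes at the floor in all libraries are of that kind.

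None of the interferon genes listed rose above the floor in any library. *IFNB1*, the target of IRF3, gave 2, 0 and 0 counts in control cells, and 0, 0 and 2 after knockdown. The 9 interferon genes listed (*IFNB1*, *IFNA1*, *IFNA2*, *IFNL1*, *IFNL2*, *IFNL3*, *IFNE*, *IFNK* and *IFNG*) were at the floor in all 6 libraries, beside 10216 of all 28395 genes. *IRF7*, which amplifies interferon transcription, was also there, and 83.5% of its words occur on alternate sequences. Within the primary sequence, 67.8% of the words of *IFNA1*, 46.7% of those of *IFNL2* and 40.4% of those of *IFNL3* occur more than once. How reads from such genes were counted is not given in the sources used here.

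Genes that act after interferon could be tested in part. Of the receptor genes, *IFNGR2* had 3.42, 6.07 and 6.32 CPM with control siRNA and 3.19, 3.49 and 1.90 CPM with KIFC1 siRNA, and control replicate 1 overlapped the knockdown libraries. Its log2 fold change was -0.88 with an adjusted p of 0.294 in edgeR and 0.0291 with the block, and 79.2% of its words occur on alternate sequences. *USP18*, which restrains signalling at the interferon receptor, had 27.6 ± 0.757 CPM with control siRNA and 32.2 ± 1.72 CPM with KIFC1 siRNA, without overlap (SD, n = 3; log2 fold change 0.22, adjusted p = 0.589 in edgeR). Of the words of *USP18*, 58.0% occur more than once in the primary sequence. With the block, 2 of the 135 pathway genes tested were called, *ZCCHC3* and *IFNGR2*, both lower, where 3.07% of all genes were called lower.

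Fitted changes of interferon-stimulated genes had either sign. *ISG15* had 2.95 ± 0.257 CPM with control siRNA and 3.87 ± 1.05 CPM with KIFC1 siRNA (SD, n = 3; log2 fold change 0.39, 95% interval -0.15 to 0.93), whereas the log2 fold change of *IFIT1* was -0.14 (95% interval -0.59 to 0.30) and that of *MX1* -0.16 (95% interval -0.62 to 0.31). *RSAD2*, the antiviral enzyme viperin, had 2.88, 2.94 and 3.27 CPM with control siRNA and 2.17, 1.84 and 1.53 CPM with KIFC1 siRNA, without overlap (log2 fold change -0.71, adjusted p = 0.316 in edgeR). *IFIT3* was also without overlap, with 21, 19 and 17 counts against 6, 13 and 10 (log2 fold change -0.86, adjusted p = 0.504 in edgeR). Of the 60 genes in this list 33 were tested, 17 with a log2 fold change above 0 and 16 below, and 1 was higher and 3 were lower at an unadjusted p under 0.05, which 9.26% of all genes tested had in either direction. In 6 of the 33 the groups did not overlap, beside 15.5% of all genes tested. At the floor in all libraries were 20 of the 60, beside 10216 of all 28395 genes. Among the 20 were *IFI44*, *IFI44L*, *CXCL10* and *OASL*.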

How the data were processed

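RNA-seq of H146 cells was analysed on day 2 after transfection of control siRNA or KIFC1 siRNA (3 libraries each). The authors deposited raw read counts per gene, with no normalization, made with HISAT2 2.2.1 on GRCh38 and featureCounts 2.0.8. The submitters' notes also name DESeq2 1.46.0 and R 4.4.2. The gene annotation, strand setting and handling of reads with several alignments are not given in the sources used here. All counts were whole numbers. A symbol was found for 27745 of 28395 gene IDs; IDs without one took 0.0618% of the counts.

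Counts were fitted with edgeR 4.0.16 (R 4.3.3; its expression filter by group with *KIFC1* added, TMM, robust quasi-likelihood test, Benjamini-Hochberg adjustment over 14777 of the 23245 genes with a count, threshold 0.05). The biological coefficient of variation was 13.1%. Standard errors were derived from the F statistics, and 95% intervals use the moderated degrees of freedom. P-values measure the spread between these 3 libraries per group. Pairs of replicates differed by more than counting noise, with mean chi-square values of 6.83 to 41.6 per gene over 12091 to 12290 genes.

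The labels give both groups the same replicate numbers. After removal of group means, same-numbered libraries had correlations of 0.484, 0.414 and 0.491 over 11758 genes, which are no independent replicates, and differently numbered ones -0.457 to 0.0234. Deviations from a group mean cancel within the group, so positive values for same-numbered libraries by themselves push the differently numbered ones lower. The numbers were taken to pair the libraries, but the labels do not say that they mark pairs, and the study's methods name no block, so the block was an alternative.

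The alternatives were DESeq2 1.42.0, its size factors, library size only, no filter on low counts, a minimum of 10 counts per library, limma-voom (limma 3.58.1), the replicate block, each library left out, other transcript lengths and a floor of 10 counts. Leaving out replicate 3 in both groups, and leaving out each library in the ratio of *CGAS* counts, were chosen after the data were seen. The test of edgeR was run on simulated counts of 14777 genes. These were drawn independently for each library, with a spread set by the mean level alone. Effects of the replicate number and extra spread of single genes were not simulated, so calls in the real libraries may differ. With 200 genes changed by a log2 fold of 0.5, 58 of them were called in the right direction, and by 1.0, 172 were. Unchanged genes called numbered 4 and 10 in these runs, and 0 when no gene was changed. The words of 32 bases were counted on the primary and alternate sequences of GRCh38. Figures were drawn with matplotlib 3.10.9, and tables were made with pandas 2.3.3 and scipy 1.17.1 in Python 3.11.15.

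The sensors and the gene lists, written from general knowledge, were chosen with earlier results of these data known. The genes named are *KIFC1*, the sensors, *DHX58*, *OAS1*, *OAS2*, *OAS3*, *IFI16*, *TREX1*, *IFNB1*, *IRF7*, *ISG15*, *IFIT1* and *MX1*, and in each list the genes called, the 2 with the smallest p and the 2 most abundant per length, plus genes at the floor in all 6 libraries. *GPATCH11*, *TLR7*, *TLR9* and the markers *UCHL1*, *NEUROD1*, *SYT1*, *NCAM1*, *CD3E*, *COL1A2* and *DCN* were named after their values were seen. Some genes that this rule names are not reported here.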

Additional observations from a re-analysis of the deposited data

How the results depend on the processing

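The number of sensor genes called, 0 of 7, and the genes at the floor among the sensors in control cells, 2 with the floor of 3 counts and with each control library left out, held in every alternative run, apart from a floor of 10 counts, which gave 3. The fit without a filter on low counts also tested *CGAS*, *STING1* and *TLR3* and called none of them (adjusted p = 0.847, 0.964 and 0.932 in edgeR). The number of genes called over the whole table moved from 103 to 270 with DESeq2 (125 higher, 145 lower), to 265 without a filter on low counts (121 higher, 144 lower), to 861 with the replicate block (407 higher, 454 lower), to 204 without replicate 3 in both groups, and to between 24 and 468 with each library left out, the highest without knockdown replicate 3. The pairing by replicate number changed the call of *KIFC1*, *ZCCHC3* and *IFNGR2* and of no other gene of the pathway lists; of the neuroendocrine markers it added 2 higher, *SYT1* among them, and *NCAM1*, lower. The order of the sensors by level had 3 pairs swapped with the longest transcript and 5 with all exons merged. Signs turned for genes with log2 fold changes near 0. That of *MAVS* lay between -0.07 and 0.08 in fits that left out a library (0.06 without knockdown replicate 1) and was 0.01 without replicate 3 in both groups. In the same fits, that of *ADAR* ranged from -0.16 to 0.01, that of *TBK1* from -0.02 to 0.16 and that of *IRF3* from -0.20 to 0.15. Without replicate 3 in both groups, *TBK1* had -0.01 and *IRF3* 0.12. The cause was not tested. Counts of *CGAS*, *STING1* and *TLR3* set a limit of depth, since 3 counts correspond to 0.163 to 0.198 CPM.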
